A study of Mus musculus with 6 samples.

Results

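Myc, Mycn and Pvt1 were followed in RNA-seq libraries of sorted long-term hematopoietic stem cells (LT-HSCs), the rare marrow cells that sustain blood formation. The genes are the rows of the deposited count table that carry these 3 symbols, 3 of the 11779 genes listed there, and all 3 passed the filter on low counts. The study compared bone marrow LT-HSCs of c-Mycfl/+ mice (WT, n = 3 libraries) with those of c-Mycfl/+Mx1Cre mice (HET, n = 3), all female and 8 weeks old. Cells had been sorted as Lin- Sca1+ c-Kit+ CD48- CD150+. Every mouse therefore carried 1 floxed and 1 unmodified Myc allele, and the groups differed by the Cre transgene. Mx1-Cre is driven by an interferon-responsive promoter that is active in many cell types besides stem cells, and the transgene was switched on with 3 injections of poly(I:C), a double-stranded RNA analog, at 6 mg/kg. Whether WT mice were injected too is not said separately, so the transgene, the injections and the loss of an allele cannot be told apart here. The labels call the HET libraries KO in their titles although the genotype is heterozygous. They do not say whether a library came from 1 animal or a pool, so the p-values measure only the spread between these libraries.

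Myc encodes c-MYC, a transcription factor that pairs with MAX and binds E-box DNA to drive ribosome production, metabolism and cell division. Mycn encodes N-MYC, a close relative with the same partner and DNA motif, and blood stem cells express both. Pvt1 is a long non-coding RNA gene next to Myc. It lies in the same regulatory neighbourhood, and both its promoter and its RNA have been described as influencing Myc or its protein. In stem cells the dose of MYC is known for its part in the balance between self-renewal and differentiation.

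On GRCm38 (mm10), GENCODE M21 places Myc (ENSMUSG00000022346) on the plus strand at chr15:61985391-61990374. Pvt1 (ENSMUSG00000097039) lies on the same strand at chr15:62037986-62378096, and its annotated start is 52.6 kb from that of Myc. Mycn (ENSMUSG00000037169) is on the minus strand of another chromosome, at chr12:12936093-12941914. Since Myc and Mycn are relatives, their coding sequences were compared to see whether reads could be assigned to the wrong gene. The coding sequences of 1320 and 1389 bases aligned over 1226 positions, of which 66.8% were identical, and their longest identical run was 12 bases. The gap-free stretch of 90 bases with the highest identity, 66 bases or 73.3%, lay in exon 3 of both transcripts, at chr15:61989732-61989821 for Myc and chr12:12937087-12937176 for Mycn. It encodes part of the helix-loop-helix domain through which both proteins pair with MAX. Capitals mark the bases that the genes share in this stretch.

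Myc: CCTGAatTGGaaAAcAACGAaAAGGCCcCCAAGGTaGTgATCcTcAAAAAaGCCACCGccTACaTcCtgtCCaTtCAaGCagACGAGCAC

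Mycn: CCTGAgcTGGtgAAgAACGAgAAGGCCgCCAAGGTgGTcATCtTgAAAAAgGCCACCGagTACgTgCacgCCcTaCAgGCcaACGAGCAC

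Even here, differing bases fall every few positions. Of the 2715 distinct 50-base words in the annotated Myc transcripts and the 3244 in those of Mycn, 0 occurred in transcripts of any other annotated gene, on either strand. Unannotated copies in the genome were not searched. Pvt1 shared 256 of its 7277 words (3.52%) with other annotated genes. They belong to 3 short RNA genes inside it (Gm27913, Gm27718 and Gm27957), to H2afy3, a pseudogene on the opposite strand that shares 109 exonic bases with it, and to H2afy2. Neither the 3 short RNA genes nor H2afy3 had a row in the table. The 3 short RNA genes lie on the same strand as Pvt1, so no strand setting of the counting would part them from it. For H2afy3 the strand setting matters, and no source used here gives it. Some Pvt1 counts could therefore belong to these overlapping genes. How many is not known, since 3.52% is a share of words and not of counts. The first 120 bases of Pvt1 exon 1, at chr15:62037986-62038105, are shown because Pvt1 is the one gene of the 3 whose level passed the test below. Capitals mark the part that Gm27913 overlaps.

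Pvt1: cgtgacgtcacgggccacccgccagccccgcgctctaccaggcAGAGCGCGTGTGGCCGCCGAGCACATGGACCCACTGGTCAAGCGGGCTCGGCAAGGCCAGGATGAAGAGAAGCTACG

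Libraries held between 4249490 and 9886223 counts. HET 1 was the deepest and the others reached at most 5600856. The 10 LT-HSC markers examined, among them Kit, Slamf1 (CD150), Mecom and Hlf, were all present, with a summed level of 3253 to 3563 CPM (counts scaled to one library size, after TMM) in WT and 3142 to 3629 CPM in HET. Cd48, which the sort excluded, measured 1.67 to 3.25 CPM in WT, against 3.67 to 8.96 CPM in HET. Of the other lineages, neutrophil and monocyte markers summed to 206 to 703 CPM in WT, against 306 to 566 CPM in HET, with the highest sum in WT 3. Megakaryocyte markers, several of which LT-HSCs also express, summed to 768 to 787 CPM in WT, against 1122, 915 and 949 CPM in HET 1, 3 and 4. Among them Itga2b had 316, 289 and 263 CPM in WT 1, 3 and 4, against 561, 364 and 391 CPM in HET 1, 3 and 4. For every other megakaryocyte marker with a row the groups overlapped, as for Vwf (372 to 463 CPM in WT, 385 to 478 CPM in HET). Erythroid markers gave 203 to 256 CPM, with a row for 6 of the 10 listed. B lineage markers gave 15.2 to 23.4 CPM, with a row for 4 of the 8 listed. T and NK markers gave 9.06 to 29.6 CPM, with a row for only 2 of the 8 listed, Cd4 and Nkg7. Cd3e was among those without a row.

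Below, log2FC is the log2 fold change of HET over WT with its SE after ±, and a CPM or RPKM value with ± is the mean with SD of the 3 libraries of a group. Of the 3 genes, 1 (Pvt1) passed an adjusted p of 0.05 in the edgeR quasi-likelihood fit over 10869 genes, where 0.258% of all genes passed, 0.0368% higher and 0.221% lower in HET. For 2 of the 3 (Myc lower, Pvt1 higher) every HET library lay beyond every WT library, which was so for 10.3% of all genes tested.

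Myc, the gene targeted in the design, was covered by 2480 (WT 1), 2336 (WT 3) and 2272 (WT 4) counts, against 2962 (HET 1), 1773 (HET 3) and 1909 (HET 4). Scaled for depth these were 447.4, 427.4 and 541.8 CPM in WT, against 293.8, 386.7 and 372.0 CPM in HET. All HET libraries were below all WT libraries, but the gap between WT 3 and HET 3 was smaller than the spread within either group. The fitted log2 fold change was -0.43 ± 0.12 (SE), with an unadjusted p of 0.00235 and an edgeR adjusted p of 0.312, rank 82 of 10869 by p. An exact permutation of the group labels, two-sided, gave p = 0.1, the smallest that 3 against 3 allows. HET stood at 74.3% of WT, with a 95% interval from 62.1% to 88.8% in the edgeR fit. This interval lay above 50%, the share that would be left if 1 of 2 equally used alleles gave no counted reads. The counts cover the whole gene, and neither the floxed segment nor the share of cells with deletion was measured here. In bulk samples, fewer cells with a transcript and less of it per cell cannot be told apart.

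The size of the Myc difference was carried in part by its extreme libraries, HET 1 on the low side and WT 4 on the high side. Without HET 1 the log2 fold change was -0.32 (edgeR adjusted p = 0.365), and without WT 4 it was also -0.32 (0.998). Leaving out WT 3 or HET 3 gave -0.50 in both cases. It was negative in each of these fits.

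For Mycn the WT libraries held 1382, 1741 and 1407 counts, and the HET libraries 2737, 2152 and 2484. These came to 249.3, 318.5 and 335.5 CPM in WT 1, 3 and 4, against 271.5, 469.3 and 484.0 CPM in HET 1, 3 and 4. HET 3 and HET 4 were above all WT libraries, and HET 1 lay between WT 1 and WT 3. The log2 fold change was 0.44 ± 0.22 (SE, edgeR adjusted p = 0.979), and its 95% interval ran from 95.6% to 192% of the WT level. The exact two-sided permutation p was 0.3. The coefficient of variation between libraries was 15.2% in WT and 29.1% in HET, against 12.9% and 14.2% for Myc.

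Whether Mycn passed depended on HET 1. Without that library Mycn rose, with a log2FC of 0.66 ± 0.12 (edgeR adjusted p = 0.00297), whereas dropping any of the 5 others gave values from 0.30 to 0.52, none of which passed. HET 1 also had the most counts, the lowest summed LT-HSC markers (3142 CPM) and the highest summed megakaryocyte markers (1122 CPM), while Cd48, the marker the sort excluded, measured 3.25, 2.74 and 1.67 CPM in WT 1, 3 and 4, against 3.67, 8.29 and 8.96 CPM in HET 1, 3 and 4. As for Mycn, HET 3 and HET 4 stood highest in Cd48 and HET 1 lay near the WT libraries. The part of these markers in the Mycn value was not tested. HET 1 was also thinned at random to 5008675 counts, the depth of the other libraries on average. The Mycn log2 fold change was then 0.44 (edgeR adjusted p = 0.951). Random thinning leaves the expected share of each gene in the library unchanged, so this fit could not show why HET 1 differs.

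Pvt1 was the scarce member, with 21 (WT 1), 45 (WT 3) and 13 (WT 4) counts against 231 (HET 1), 124 (HET 3) and 103 (HET 4). These counts came to 3.79, 8.23 and 3.10 CPM in WT, against 22.9, 27.0 and 20.1 CPM in HET, and the lowest HET library exceeded the highest WT library. A single WT library was known only coarsely: the exact 95% Poisson interval of WT 4 ran from 1.65 to 5.30 CPM and that of WT 3 from 6.00 to 11 CPM, while the lowest lower bound among HET libraries was 16.4 CPM. These intervals cover counting error in 1 library only and leave out the spread between libraries. The reads carry no stated molecular identifiers, so copies of the same molecule could have been counted more than once. Pvt1 rose 4.56-fold in HET (95% interval 2.65 to 7.84; log2FC 2.19 ± 0.38, edgeR adjusted p = 0.00725). Its log2 fold change was the third most positive of the 10869 genes tested and it was rank 14 by p. An exact two-sided permutation of the group labels gave p = 0.1, the smallest that 3 against 3 allows. The pooled counts, 79 in WT and 458 in HET, gave a ratio of 4.45 after scaling (exact 95% interval for counting error 3.50 to 5.73).

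Of the 226 non-coding RNA genes tested, 1 rose, which was Pvt1, and 1 fell, and their median log2 fold change was 0.04. Without WT 1 the log2 value of Pvt1 was 2.01 but its edgeR adjusted p was 0.0873, and limma-voom on all 6 libraries gave 2.26 with an adjusted p of 0.0542. WT 3 was the highest WT library, and without it the log2 value was 2.74 (edgeR adjusted p = 0.00410).

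**Figure D1:**
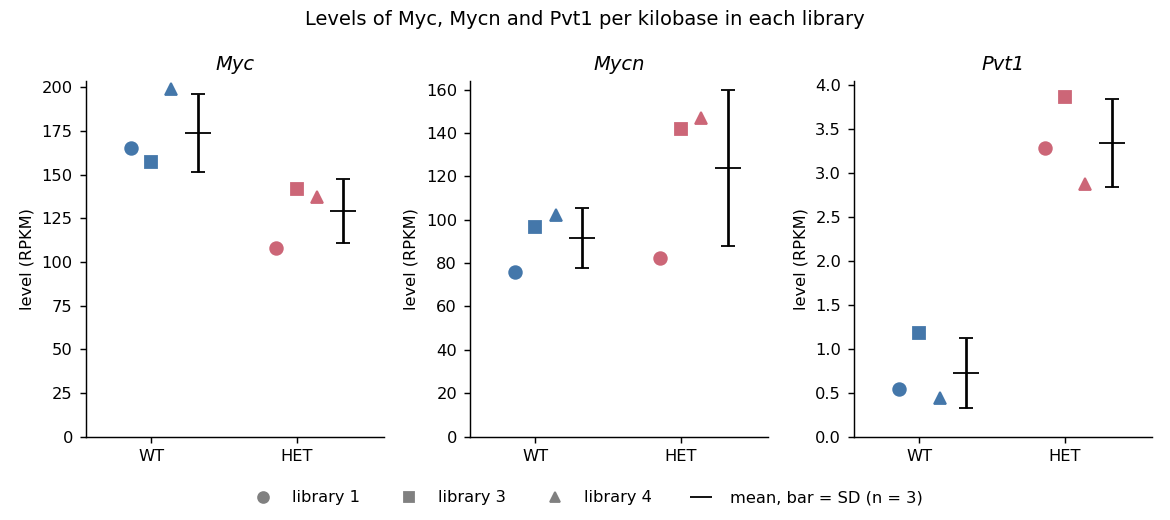
Level of each gene in RPKM (CPM divided by the exonic length in kilobases; y axis from 0) in the WT (blue) and HET (red) libraries; symbols give the library number, and black lines the mean with SD of 3 libraries. Myc and Pvt1 show no overlap between the groups, while HET 1 (circle) lies among the WT libraries for Mycn.

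Levels of different genes were compared per kilobase of annotated exon. By this scale Myc measured 165, 157 and 199 RPKM in WT 1, 3 and 4, and Mycn 75.7, 96.7 and 102 RPKM. Myc was thus the higher of the pair in every WT library, without overlap. In HET, Myc measured 108, 142 and 137 RPKM and Mycn 82.4, 142 and 147 RPKM, and the ranges overlapped. Both stood high among the genes tested: Myc ranked between the 97.7th and 99.0th percentile of RPKM over the 6 libraries and Mycn between the 96.2th and 98.6th. Pvt1 was far below them, with 0.542, 1.18 and 0.443 RPKM in WT 1, 3 and 4, against 3.28, 3.87 and 2.87 RPKM in HET 1, 3 and 4. That moved it from between the 3.4th and 9.4th percentile in WT to between the 19.5th and 25th in HET. The order was therefore Myc, Mycn and Pvt1 in WT, and Myc and Mycn did not differ beyond their spread in HET, with 129 ± 18.4 and 124 ± 36.0 RPKM (SD, n = 3).

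A ratio of 2 genes within a library does not depend on how the library is scaled. The ratio of Mycn to Myc per kilobase was 0.460, 0.615 and 0.511 in WT 1, 3 and 4, against 0.762, 1 and 1.07 in HET 1, 3 and 4. All 3 HET libraries, HET 1 included, were above all WT libraries. Myc made up 68.5%, 61.9% and 66.2% of the summed Myc and Mycn level in WT, and 56.8%, 50% and 48.2% in HET. The mean log2 ratio was higher by 0.83 in HET, 1.78-fold, with an exact two-sided permutation p of 0.1, the smallest 3 against 3 allows, and 0.15 after Benjamini-Hochberg adjustment over the 3 combined measures given here. The difference lay between 0.74 and 0.98 when each library was left out in turn. This ratio combines the Myc and Mycn values above and is no separate evidence for either.

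The ratio of Pvt1 to Myc per kilobase was 0.337%, 0.756% and 0.231% in WT 1, 3 and 4, against 3.03%, 2.73% and 2.11% in HET 1, 3 and 4 (0.5 counts added to both genes). The groups did not overlap. This was fixed in advance, since every HET library was above every WT library for Pvt1 and below every WT library for Myc. The ratio and its permutation p are therefore no separate evidence for either gene. The mean log2 ratio was 2.74 higher in HET, 6.67-fold (exact two-sided permutation p = 0.1, adjusted 0.15). It lay between 2.36 and 3.22 with each library left out in turn.

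Summed per kilobase, Myc and Mycn together measured 240, 254 and 301 RPKM in WT 1, 3 and 4, against 191, 285 and 284 RPKM in HET 1, 3 and 4. HET 1 was the lowest library, and HET 3 and HET 4 lay within the WT range. The means were 265 ± 32 RPKM in WT, against 253 ± 54.1 RPKM in HET (SD, n = 3), a difference within the spread between libraries (log2 difference -0.09; exact two-sided permutation p = 0.8, adjusted 0.8). The sign changed without HET 1 (0.11) and without WT 4 (0.01).

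**Figure D2:**
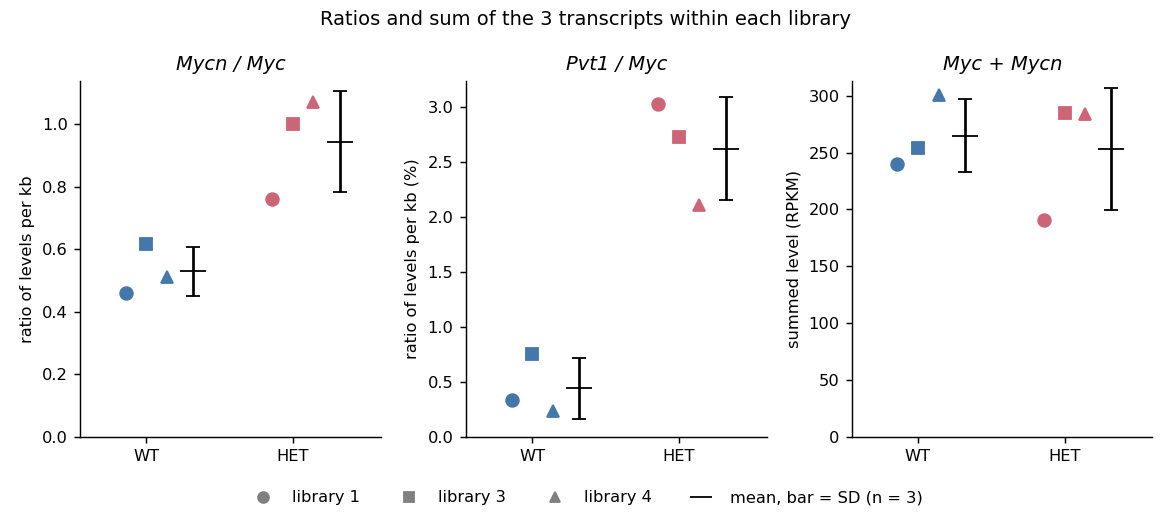
Ratio of Mycn to Myc, ratio of Pvt1 to Myc in percent, and summed Myc and Mycn level in RPKM (y axes from 0) in the WT (blue) and HET (red) libraries, with the mean and SD of 3 libraries in black. Both ratios separate the groups, from 0.615 to 0.762 for Mycn to Myc at the nearest libraries, while the sums overlap. For Pvt1 to Myc the separation follows from the levels of Pvt1 and of Myc, each of which separates the groups.

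**Figure D3:**
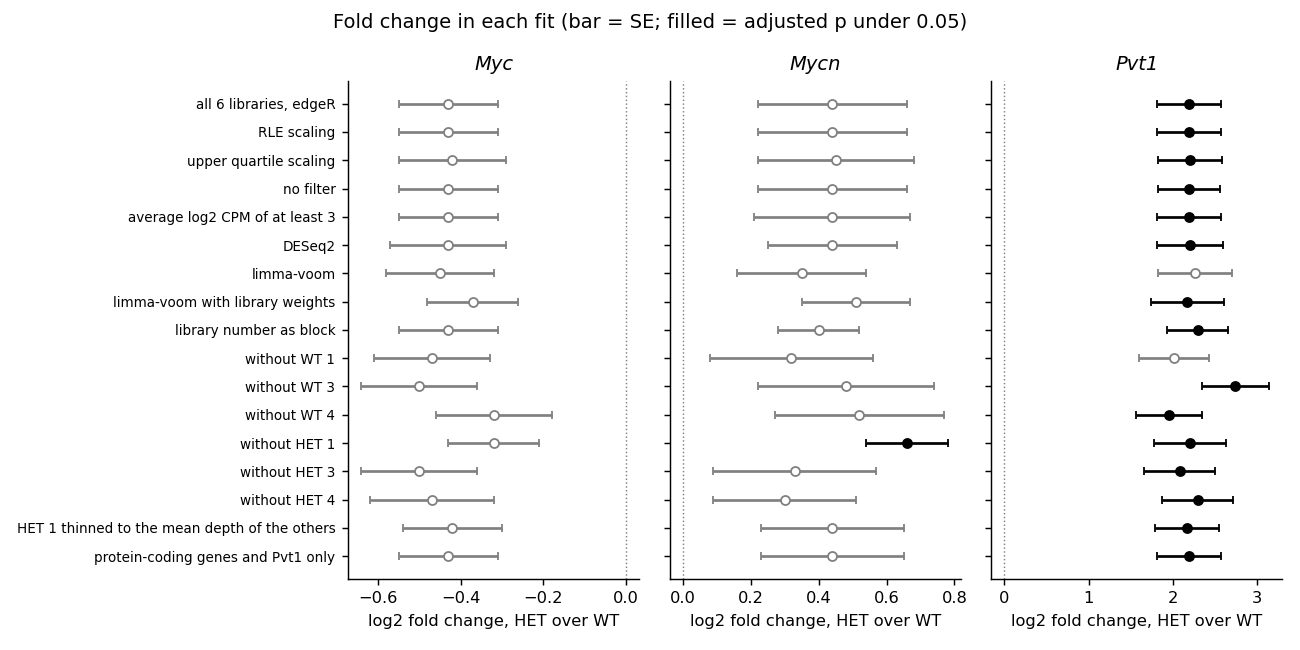
The log2 fold change of HET over WT (x axis, a different range for each gene) for Myc, Mycn and Pvt1 in the fit of all 6 libraries and 16 alternatives (rows), with SE as bars; filled points have an adjusted p under 0.05. Every point keeps its sign, Mycn is filled in 1 fit only, the one without HET 1, and Pvt1 is open in 2, limma-voom and without WT 1.

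The table also gave the levels of other genes near Myc and Mycn. Within 2 Mb of the Myc start 2 genes were tested, Pvt1 and Fam84b. Fam84b, whose start lies at -1131.6 kb relative to that of Myc, measured 38.3 ± 5.37 CPM in WT, against 48.5 ± 5.79 CPM in HET (log2FC 0.34 ± 0.20, edgeR adjusted p = 0.980). Widening the window to 5 Mb took in 28 genes, of which 1, Pvt1, passed, beside 0.258% of all genes tested. Their median log2 fold change was 0.00 and 14 of the 28 values were positive. In this window 3 of 28 genes (Pvt1, Asap1 and Trib1) had no overlap between the groups, a share near the 10.3% of all genes tested and so no feature of the neighbourhood. Trib1, which encodes a pseudokinase that directs degradation of C/EBP proteins, was named after its values were seen. It had 60.4, 46.3 and 55.8 CPM in WT 1, 3 and 4, against 31.6, 27.3 and 32.2 CPM in HET 1, 3 and 4 (log2FC -0.83 ± 0.20, edgeR adjusted p = 0.115), and its start lies at -2337.0 kb, on the side away from Pvt1. DESeq2 called Trib1 as well as Pvt1 in this window, and limma-voom called neither.

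Around Mycn 5 genes were tested within 2 Mb, and 0 of them passed in edgeR, DESeq2 or limma-voom, or had an unadjusted p under 0.05. The nearest was Ddx1, an RNA helicase gene that is often co-amplified with MYCN in neuroblastoma, 307.3 kb away. Ddx1 measured 170 ± 8.28 CPM in WT, against 183 ± 35.3 CPM in HET, a log2 fold change of 0.11 ± 0.14 (SE). The remaining values were 0.05 for Nbas, -0.11 for Fam49a, 0.41 for Smc6, which encodes a subunit of a DNA repair complex, and 0.09 for the resolvase gene Gen1. In the 5 Mb window 24 genes were tested, 0 passed with any of these tools, 1 (Trib2) had an unadjusted p under 0.05 and the median log2 fold change was -0.02.

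**Figure D4:**
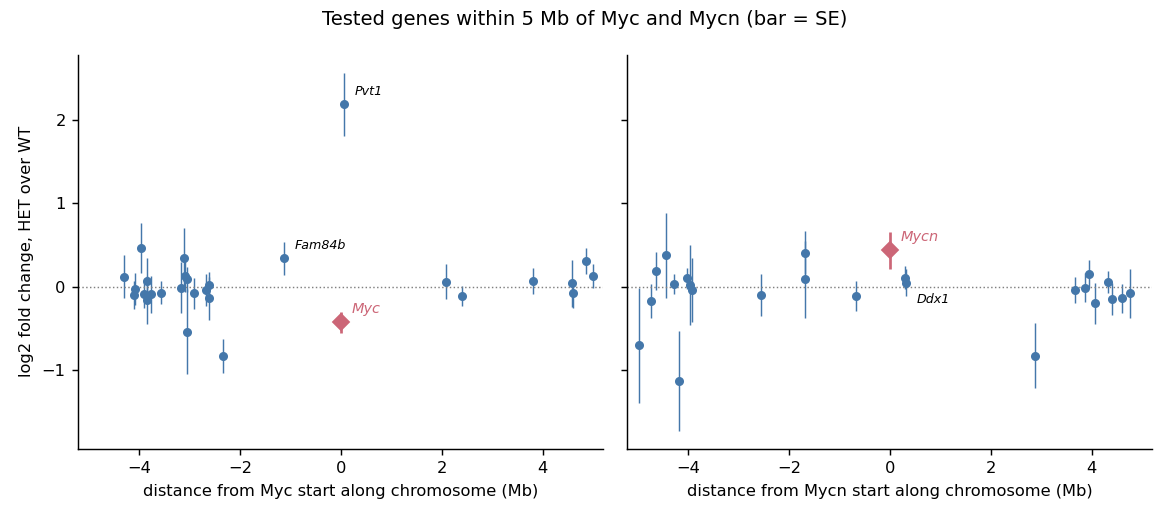
The log2 fold change of HET over WT (y axis, bars give the SE) for tested genes within 5 Mb of Myc (left) or Mycn (right), against the distance of their start site along the chromosome; the red diamond is Myc or Mycn itself. Pvt1, at 2.19, stands alone above the 27 other neighbours of Myc, whose values run from -0.83 to 0.47.

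Genes that work with MYC were taken from lists of known MYC biology. The counts are given beside the 28 of 10869 genes (0.258%) that passed and the median of 0.004 over all genes tested. Of all genes tested, 5356 had a negative log2 fold change. The lists were chosen with earlier results of these data known, so a count above these shares is no evidence about a list. Of the MYC family and its dimer partners 12 of 15 listed genes were tested, and 0 rose and 0 fell in edgeR, DESeq2 or limma-voom. In edgeR 1, Myc, had an unadjusted p under 0.05. Their median log2 fold change was -0.10, with 9 of 12 values negative. Max measured 126 ± 3.81 CPM in WT, against 133 ± 15.6 CPM in HET. The antagonists that compete for MAX did not pass: the log2FC was -0.26 ± 0.15 for Mxi1, -0.23 ± 0.12 for Mnt, -0.16 for Mxd1, -0.14 for Mxd3, -0.11 for Mxd4 and 0.15 for Mga. All HET libraries were below all WT libraries for Mxi1 and Mnt, as for 613 of the 10869 genes tested, and the groups overlapped for the other 4. Without HET 1 the only member to pass was Mycn. With 1 library left out the median ran from -0.15 (without WT 3 or HET 3) to -0.04 (without HET 1).

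Of 19 tested cofactors that MYC binds at chromatin, 1 fell and 0 rose, and the median log2 fold change was -0.05. The one that fell was Ccnt1, which encodes cyclin T1 of the elongation factor P-TEFb. It had 314.5, 222.1 and 201.8 CPM in WT 1, 3 and 4, against 158.0, 134.8 and 120.2 CPM in HET 1, 3 and 4 (log2FC -0.84 ± 0.16, edgeR adjusted p = 0.0207). The count was 0 without WT 1, WT 3, HET 3 or HET 4, and 0 with limma-voom. The median of the list lay between -0.07 (without WT 1) and -0.02 (without HET 4) with 1 library left out. Paf1, a subunit of an elongation complex, had 240 ± 10.4 CPM in WT, against 186 ± 5.36 CPM in HET (edgeR adjusted p = 0.423). Ruvbl2 (-0.26) and Smarcb1 (0.20), of chromatin-remodelling complexes, did not pass.

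Of 21 tested genes whose products act on the stability of MYC or N-MYC protein, 0 passed in either direction in edgeR or limma-voom, and the median log2 fold change was -0.08, or between -0.13 (without WT 1) and -0.02 (without HET 3) with 1 library left out. Fbxw7 encodes the ubiquitin ligase subunit that marks phosphorylated MYC for degradation. It measured 83.7, 65.3 and 82.8 CPM in WT 1, 3 and 4, against 65.3, 61.7 and 59.0 CPM in HET 1, 3 and 4 (log2FC -0.31 ± 0.17, edgeR adjusted p = 0.957). HET 1 and WT 3 were almost level. Pim3, a kinase gene of the family that phosphorylates MYC, had the smallest p of the list, with 57.2 ± 6.03 CPM in WT, against 30.5 ± 5.13 CPM in HET (log2FC -0.91, edgeR adjusted p = 0.0692), and it was the 1 gene of the list with an unadjusted p under 0.05. DESeq2 called it. The deubiquitinase genes Usp28 (-0.34) and Usp36 (-0.25) did not pass.

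Of 48 tested genes that MYC is known to activate, 1 fell and 0 rose. In the fit of all 6 libraries 38 of 48 log2 fold changes were negative, beside 5356 of 10869 over all genes tested, with a median of -0.11. With 1 library left out, between 28 (without WT 3) and 40 (without HET 1 or WT 4) of the 48 were negative. The median ran from -0.22 without HET 1 to -0.02 without HET 4. Ppan, a ribosome biogenesis factor, fell from 357 ± 33.7 to 186 ± 23.6 CPM (log2FC -0.94 ± 0.12, edgeR adjusted p = 5.214e-04), and it passed whichever of the 6 libraries was dropped. Odc1, the rate-limiting enzyme of polyamine synthesis and a classic MYC target, measured 78.4 ± 10.8 CPM in WT, against 71.1 ± 7.94 CPM in HET. Ncl, which encodes the nucleolar protein nucleolin, measured 2070 ± 117 and 1890 ± 185 CPM. Both had overlapping libraries. Fbl (-0.52 ± 0.21), Slc3a2 (-0.41 ± 0.13) and Nop56 (-0.28 ± 0.14) did not pass. Without HET 1, Nop58 also fell.

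Of 16 tested genes that MYC is known to repress, 1 fell and 0 rose, and the median log2 fold change was -0.03. The sign of this median depended on single libraries: it was 0.06 without HET 1, 0.03 without WT 4, 0.01 without WT 1 and -0.08 without HET 3. The one that fell, Btg2, an antiproliferative gene, dropped from 188 ± 5.55 to 76.9 ± 17.1 CPM (edgeR adjusted p = 1.679e-04), and it passed whichever of the 6 libraries was dropped. Cdkn1a, the cell cycle inhibitor p21, had 65.3, 40.1 and 34.8 CPM in WT 1, 3 and 4, against 31.1, 11.3 and 8.77 CPM in HET 1, 3 and 4 (edgeR adjusted p = 0.788). The level of Txnip, whose product binds and inhibits thioredoxin, was 581 ± 74.8 CPM in WT against 884 ± 159 CPM in HET (log2FC 0.61, edgeR adjusted p = 0.0672). Tob1 (-0.48 ± 0.25) did not pass. Without HET 1, Btg2 and Cdkn1a fell and Txnip rose, and DESeq2 on all 6 libraries also called Txnip higher.

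**Figure D5:**
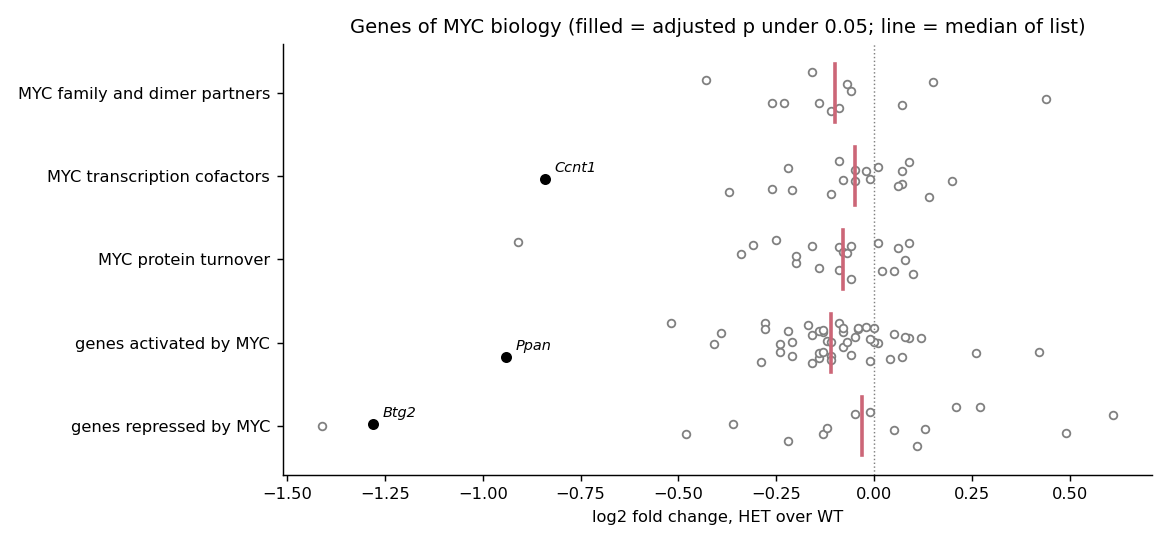
The log2 fold change of HET over WT (x axis) of each tested gene in the 5 lists of MYC biology (rows; height within a row is random), with filled points for an adjusted p under 0.05 and a red line at the median of each list. The 3 filled points, Ccnt1, Ppan and Btg2, are all below 0, and the medians lie between -0.11 and -0.03 with all 6 libraries.

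The genes whose log2 CPM followed each of the 3 most closely over the 6 libraries were ranked by Pearson's r among 9389 genes whose average log2 CPM reached 3. With 6 points that share a group difference and library effects, such values are a description of likeness only. Nearest to Myc were Fbl (r = 0.989), which encodes the rRNA methyltransferase fibrillarin, Bcl2l2 (0.986), Kcnh2 (0.984), Ptk2 (0.982) and Snord13 (0.974), a small nucleolar RNA. Like Myc, Fbl had its highest value in WT 4 and its lowest in HET 1, at 53.7 and 28.1 CPM. Nearest to Mycn were Gtpbp6 (0.992), Tsen54 (0.989), Gba2 (0.988), Capg (0.987) and Itga5 (0.982), an integrin gene. In Itga5, as in Mycn, HET 3 and HET 4 stood highest, at 143.9 and 154.7 CPM, and HET 1, at 103.9 CPM, lay within the WT range of 93.5 to 111.4 CPM. Nearest to Pvt1 were Kat2b (0.990), an acetyltransferase gene, Tex10 (0.980), Phtf1 (0.979), Asxl1 (0.975) and Psmd5 (0.973). The likeness concerns the order and spacing of libraries and not the size of the change, since the log2 fold changes of these 5 were between 0.21 and 0.34 against 2.19 for Pvt1.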

How the data were processed

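RNA-seq counts of 6 libraries were used. The authors deposited whole-number counts per gene. FastQC, STAR 2.5.2b, edgeR, limma and mm10 are named without a role in the submitters' processing notes; no source used here gives the read counter, annotation or strand setting, and the protocol fields of these samples describe another study and were not used. Every gene in the table reached at least 1.012 CPM in 2 or more libraries, so low genes had been removed before deposit. Groups came from the genotype label and library numbers from the titles.

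Counts were fitted over the whole table with edgeR 4.0.16 (filterByExpr, leaving 10869 genes; TMM; robust quasi-likelihood F test, two-sided; group as the only term; Benjamini-Hochberg over all genes, threshold 0.05). Standard errors were derived from F. RPKM used merged GENCODE M21 exons. Combined measures used exact permutation tests of 3 against 3 libraries. DESeq2 1.42.0 and limma 3.58.1 were alternatives. Scripts were tested on simulated data. The members and gene lists were chosen with earlier results of these data known. Named genes were the neighbours within 2 Mb, the 4 or fewer smallest p-values of each list, Fbxw7, Max, Odc1, Ncl and Cdkn1a, and the 5 genes most like each member; Nop58, Asap1, Trib1, Trib2, Mga and the Mxd genes were added after their values were seen. Listed genes without a row were not analysed here.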

Additional observations from a re-analysis of the deposited data

How the results depend on the processing

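Myc stayed below and Mycn and Pvt1 above WT in all 16 alternative fits each, which changed scaling, filter, tool, depth, gene types or libraries. Leaving out 1 library moved the log2 fold change between -0.50 and -0.32 for Myc, 0.30 and 0.66 for Mycn and 1.95 and 2.74 for Pvt1. Myc passed in none of them. Pvt1 missed the threshold with limma-voom (2.26, adjusted p = 0.0542) and in edgeR without WT 1 (2.01, adjusted p = 0.0873). The genes passing over the whole table, 28 in the edgeR fit, numbered 59 with DESeq2, 49 with the library number as a replicate block and between 10 and 68 with 1 library left out (11 without WT 1, 10 without HET 4, 68 without HET 1). With the replicate block the log2 fold changes were -0.43 for Myc, 0.40 for Mycn and 2.29 for Pvt1, with no call changed. The unadjusted p of Mycn varied with the model. It was 0.0798 in the main edgeR fit, 0.002995 in edgeR with the block and 0.0181 with DESeq2. With limma-voom it was 0.0869, or 0.00433 with library weights. None of these passed after adjustment. The same-numbered libraries were not treated as pairs in the main fit. Their deviations from the group means correlated at 0.112, -0.044 and 0.072 for numbers 1, 3 and 4. For WT and HET libraries of unlike number the values ran from -0.174 to 0.111. Deviations from a mean of 3 libraries depend on each other, so these values cannot show whether the libraries were paired. The difference in the summed Myc and Mycn level ran from -0.18 to 0.11 with 1 library left out. The log2 difference in the ratio of Pvt1 to Myc was 2.77 with no pseudocount and 2.65 with 2. HET 1 thinned, the fit of protein-coding genes with Pvt1, and the list counts with a library left out or another tool were chosen after seeing the data. Depth limits Pvt1 most: 3 counts correspond to between 0.298 and 0.715 CPM.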
